A study of Homo sapiens with 4 samples.

Results

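These results concern 254 PML peaks that lie at the promoters of 241 pseudogenes in the MDA-MB-231 line, long-established cells from a human breast cancer of the triple-negative kind. They are the rows of the annotated peak table whose nearest gene is typed as a pseudogene and whose centre lies within 1000 bp of that gene's transcription start site (TSS), and they make up 254 of 68937 peaks (0.368%) and 1.84% of the 13770 peaks of any gene type within 1000 bp of a TSS. The labels name 2 libraries from chromatin precipitated with an antibody to PML and 2 input libraries of the same untreated line. They also state that duplicates were merged. No genotype, treatment or second cell line was compared. The table holds 1 merged list, so no value below has a replicate error, no difference was tested, and the intervals are exact 95% intervals that cover counting over peaks only. Read depth is unknown from the table.

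PML is the scaffold protein of PML nuclear bodies, round structures of the cell nucleus that gather proteins of transcription, DNA repair and senescence. A pseudogene is a copy of a gene that has lost the coding capacity of its parent. Processed pseudogenes arose when an mRNA was copied back into the genome, so they lack introns and the parent's promoter, whereas duplicated pseudogenes arose as pieces of DNA copied with their introns and often with the start region. The table measures the distance from transcript starts, and the pseudogenes it names are nearly all ones with an annotated transcript. Of the 241 genes, 237 are typed as transcribed pseudogenes in RefSeq and the other 4 (GGTA1P, SCART1, LOC728743 and TTLL13P) are now typed as protein-coding. RefSeq lists 1265 transcribed pseudogenes under a chromosome name, with entries on scaffolds assigned to a chromosome not taken out. Of these, the 237 are 18.7% (16.6 to 21.0%). Another 31 have a peak within 1000 bp of the TSS but are typed as protein-coding (26) or ncRNA (5) in the peak table and are no members, so that 268 (21.2%, 19.0 to 23.5%) have a promoter peak of any type. Of 15580 RefSeq pseudogenes without the transcript mark, 8 are named in the table.

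The promoter table from RefSeq (GRCh38.p14) holds starts of protein-coding and lncRNA genes, so most pseudogenes have no window of their own in it. In 21 of the 254 peaks it places the start window of such a gene wholly inside the peak, and 6 of these windows are shown because they lie under peaks of the highest-scoring members or lead the ribosomal protein, zinc finger and chaperone copies that hold one. Each is the 250 bases upstream of the named gene's start, 5′ to 3′ on that gene's strand. Capitals mark matches, on either strand, to motifs that were searched for: GGGCGG (SP factors), CCGGAAG (ETS factors), GCATGCGC (NRF1) and CCAAT (NFY). The windows are chr15:22257634-22257883 (minus strand, REREP3 peak), chr2:113584031-113584280 (minus, WASH2P), chr9:40991832-40992081 (minus, FRG1HP), chr2:113627016-113627265 (plus, RPL23AP7), chr18:35290230-35290479 (minus, ZNF271P) and chr7:65750925-65751174 (minus, CCT6P1).
REREP3 (LOC124903445): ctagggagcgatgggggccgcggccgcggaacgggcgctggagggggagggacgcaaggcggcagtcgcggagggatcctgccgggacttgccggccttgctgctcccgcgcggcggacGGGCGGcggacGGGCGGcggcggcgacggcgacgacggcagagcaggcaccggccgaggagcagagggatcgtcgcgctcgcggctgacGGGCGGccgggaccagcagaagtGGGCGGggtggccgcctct
WASH2P (LOC124907875): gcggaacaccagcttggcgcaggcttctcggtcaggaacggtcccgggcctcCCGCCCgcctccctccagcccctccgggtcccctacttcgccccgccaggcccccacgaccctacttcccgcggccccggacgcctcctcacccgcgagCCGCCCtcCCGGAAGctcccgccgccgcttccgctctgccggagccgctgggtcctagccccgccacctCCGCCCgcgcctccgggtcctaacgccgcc
FRG1HP (LOC107986997): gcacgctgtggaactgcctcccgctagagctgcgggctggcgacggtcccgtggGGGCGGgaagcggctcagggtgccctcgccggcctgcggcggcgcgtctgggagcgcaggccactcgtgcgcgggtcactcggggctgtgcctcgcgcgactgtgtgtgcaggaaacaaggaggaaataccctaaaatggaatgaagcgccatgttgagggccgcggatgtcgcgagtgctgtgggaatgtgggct
RPL23AP7 (RABL2A): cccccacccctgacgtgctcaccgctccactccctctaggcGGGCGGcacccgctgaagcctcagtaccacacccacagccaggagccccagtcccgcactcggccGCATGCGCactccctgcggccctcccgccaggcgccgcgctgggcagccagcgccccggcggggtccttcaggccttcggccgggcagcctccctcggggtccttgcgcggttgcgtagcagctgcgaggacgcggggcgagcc
ZNF271P (ZSCAN30): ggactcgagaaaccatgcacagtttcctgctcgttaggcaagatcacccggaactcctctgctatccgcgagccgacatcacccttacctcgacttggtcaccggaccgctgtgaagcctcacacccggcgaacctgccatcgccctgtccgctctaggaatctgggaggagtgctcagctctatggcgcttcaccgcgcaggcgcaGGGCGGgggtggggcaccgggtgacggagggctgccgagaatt
CCT6P1 (LINC03006): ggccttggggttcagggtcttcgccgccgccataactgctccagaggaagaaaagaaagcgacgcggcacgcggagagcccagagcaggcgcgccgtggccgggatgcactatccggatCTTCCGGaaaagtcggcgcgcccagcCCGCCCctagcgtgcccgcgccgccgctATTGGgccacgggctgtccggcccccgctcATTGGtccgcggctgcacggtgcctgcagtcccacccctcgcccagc

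The 6 windows are rich in G and C, from 63.2% in the ZSCAN30 window to 78.4% in the window of LOC124903445, and hold between 21 and 41 CpG dinucleotides. Over all 23 windows inside members' peaks, the median was 71.2% G and C with 27 CpG dinucleotides, against 58% and 11 over 34943 RefSeq promoter windows of the same length. GGGCGG was found in 17 of the 23 windows (73.9%), which lie in 15 of the 21 peaks, and in 42.5% of all promoter windows. CCGGAAG was found in 5 windows (21.7%, against 8.48% of all) of 4 peaks, since the 2 windows of WASH2P overlap and share the match. CCAAT was found in 5 windows of 5 peaks (21.7%, against 32.0%). GCATGCGC and TCTCGCGA (ZBTB33), CACGTG (E-box, a palindrome) and TGANTCA (AP-1) were each found in 1 window, against 2.60%, 1.01%, 6.32% and 6.59% of all. ACTACANNT (a short form of the element bound by THAP11 and ZNF143), AAGATGGC (YY1) and TATAAA (the box that binds TBP) matched none, against 3.21%, 1.36% and 10.8% of all. CpG-poor windows were the exception among the 23, with 10 CpG at HTATSF1P2, 8 at DDX11L2 and 2 at SCART1. The share of windows with a match is a description of letters, and 23 windows from 21 peaks are a small part of the members. The 23 were kept because they lie inside a peak, and the 34943 include promoters without one. Windows inside peaks of other gene types were not compared, so these differences cannot be called particular to pseudogenes.

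Scores of pseudogene promoter peaks lay close to those of protein-coding promoters. The score is the authors' whole number for each peak, on a scale that the headers do not name, and it serves here to order and describe peaks of this list alone. Members had a median score of 55 (48 to 62), from 13, the lowest score in the list, to 1851. Protein-coding peaks at the same distance had a median of 61 (60 to 61, n = 12106) and ncRNA peaks 42 (42 to 47, n = 1289), and the whole list had 34. A score of 49 or more, the upper quartile of the list, was reached by 143 members (56.3%, 50 to 62.5%), where 25.5% of all peaks and 56.8% of all peaks within 1000 bp of a TSS reached it. The members' share is therefore near the background of promoter peaks as such. At the upper end, 7 members (2.76%, 1.12 to 5.60%) had a score of 300 or more, against 1.11% of protein-coding (0.928 to 1.31%) and 1.09% of ncRNA peaks. At the lower end, 92.9% of members reached a score of 20, against 96.5% of protein-coding peaks.

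**Figure D1:**
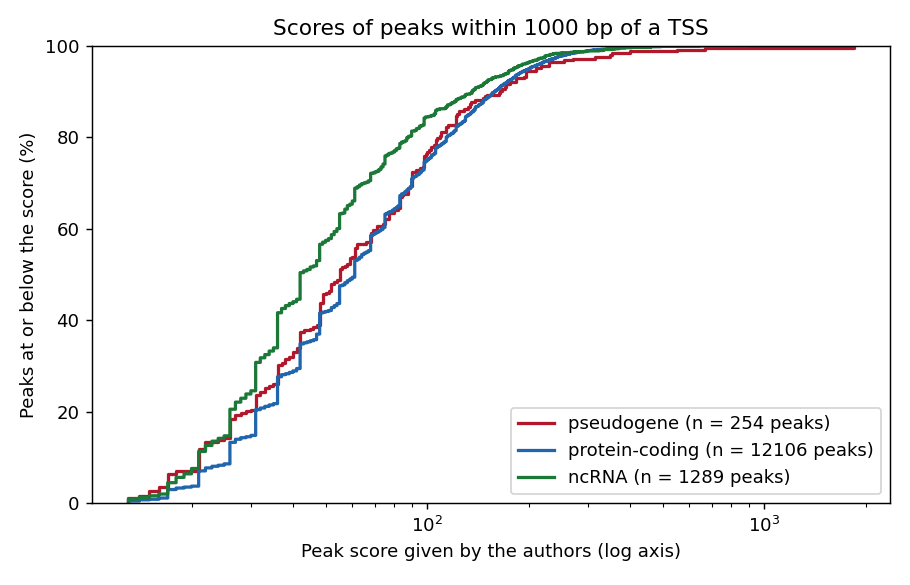
Cumulative share of peaks (%) against the authors' peak score (log axis) for peaks within 1000 bp of a TSS, with 1 line each for 254 pseudogene, 12106 protein-coding and 1289 ncRNA peaks. The pseudogene line runs close to the protein-coding line, with medians of 55 and 61, while the ncRNA line lies to the left with a median of 42.

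The peak with the highest score lay upstream of ROCK1P1, a partial copy of the protein kinase gene ROCK1. It spans chromosome 18 from 107891 to 108597, centred at -821 bp from the TSS, with a score of 1851, rank 5 of the whole list and rank 2 among all peaks within 1000 bp of a TSS. REREP3, a copy of the transcriptional corepressor gene RERE, followed with 666 on chromosome 15 from 22256542 to 22259839. That peak is 3298 bp wide, and the GC-rich window of LOC124903445 printed above lies inside it. The next members were WASH2P (553), FRG1HP (399), DDX11L2 (354), SLC7A5P2 (348) and RNF216P1 (315). Below them stood LOC100288203 (271), a copy of the actin nucleation factor gene WHAMM, and LOC728613 (254), a copy of the calcium-binding protein gene PDCD6. WASH3P and WASH5P both had 230, and DDX12P, of the DDX11 DNA helicase family, had 218. LOC389765, a copy of the kinesin gene KIF27, had 194 and was the third among symbols of the LOC type. From ROCK1P1 to REREP3 the score fell from 1851 to 666, a gap wider than the whole range of the other 253 members.

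SLC7A5P2 lies on chromosome 16, where its peak from 21519577 to 21521099 is centred 106 bp into a transcript of 1 exon. Its parent SLC7A5 encodes a large neutral amino acid transporter that imports leucine. RNF216P1, a copy of a ubiquitin ligase gene, had its peak on chromosome 7 from 4973715 to 4974799, in the CpG island class, 272 bp downstream of the TSS. FRG1HP had its peak on chromosome 9 from 40991760 to 40992760, centred 1 bp from the TSS, and with no other peak of the list within 10 kb.

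The members with the lowest score, 13, were BEND3P3, LOC606724 and the upstream peak of FAM86C2P. The widest peaks were those of SMPD5 (3585 bp, score 84), REREP3 (3298 bp) and LSP1P4 (1972 bp, score 151). SMPD5 lies on chromosome 8 and is named for a sphingomyelinase, and 7 other peaks of the list lie within 10 kb of its peak.

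Pseudogene peaks had a lower median width than protein-coding promoter peaks, with scores that lay close. The median width was 593.5 bp (523 to 674) for members, 764.5 bp (752 to 776) for protein-coding and 584 bp (558 to 618) for ncRNA peaks, against 436 bp over the whole list. Width ran with score within the members (Spearman rho 0.58 across 254 peaks, which share the same libraries), as it did across protein-coding peaks (0.66). The 49 members of 1000 bp or more had a median score of 110, and 47 of them reached 49. The 27 members of 300 bp or less had a median score of 26, and 4 of them reached 49.

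Peak centres lay mostly downstream of the start. Of the 254 centres, 89 (35.0%, 29.2 to 41.3%) were upstream, against 30.1% (29.3 to 30.9%) for protein-coding and 42.8% (40.1 to 45.6%) for ncRNA peaks. The median distance from the TSS, in either direction, was 238.5 bp, against 182 bp and 269 bp. Scores of members were nearly unrelated to the distance (Spearman rho -0.05 across 254 peaks), and those of protein-coding peaks only weakly related (-0.12). The 56 members up to 100 bp away had a median score of 48.5 (42 to 77), the 138 beyond 100 and up to 500 bp had 59.5 (48 to 69), and the 60 beyond 500 bp had 55 (38 to 83), with intervals that overlap. Protein-coding medians over the same distances were 63, 61 and 42, and ncRNA medians were 50, 48 and 36. Beyond 500 bp, 58.3% of members (44.9 to 70.9%) reached a score of 49, against 41.8% (39.5 to 44.1%) of protein-coding peaks. At the limit of 1000 bp, the last peaks inside were those of LOC100996643 (993 bp, score 88), PKD1P6-NPIPP1 (998 bp, 21) and LOC100422556 (1000 bp, 21). The first outside were at PYY2 (1043 bp, 26), ESPNP (1050 bp, 36) and LOC374443 (-1053 bp, 41), of which the last 2 genes also have a member peak.

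**Figure D2:**
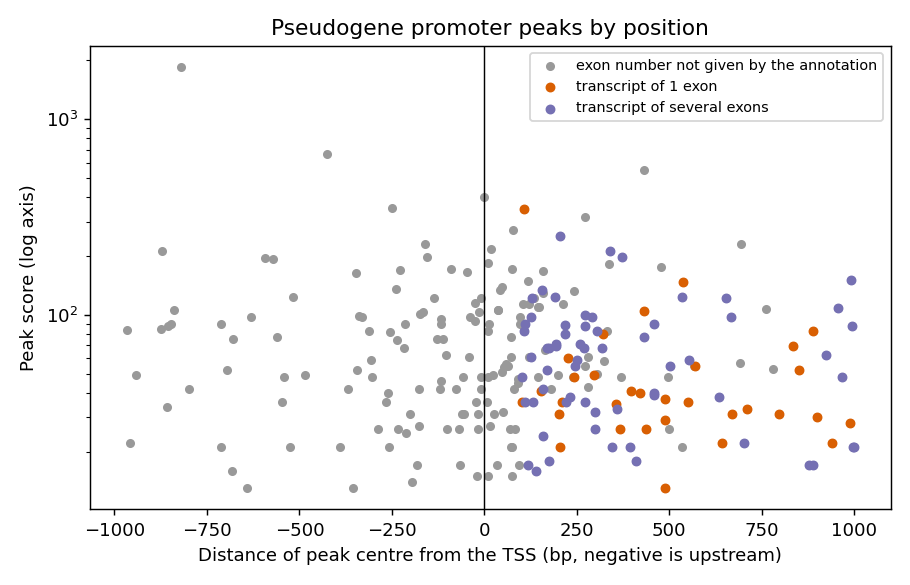
Score (log axis) of each of the 254 peaks against the distance of its centre from the TSS in bp, negative upstream. Colours mark peaks that the annotation places inside a transcript of 1 exon (32) or of several exons (63), and grey points are the rest; 89 points lie left of 0, and the highest, at -821 bp, is ROCK1P1.

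Single-exon pseudogenes, the form of most processed copies, had a lower median score than pseudogenes with several exons. The annotation places 95 members inside an exon or intron of their own transcript and so gives its number of exons. The 32 in a transcript of 1 exon had a median score of 36 (31 to 49), and 10 of them reached 49. The 63 in a transcript of several exons had 61 (42 to 71), and 37 of them reached 49. All 95 lie downstream of the TSS by construction, the single-exon ones farther into the gene (median 462 bp against 273 bp). Beyond 100 and up to 500 bp from the TSS the medians were 37 (29 to 49, n = 19) and 68 (40 to 77, n = 47), and beyond 500 bp 33 (28 to 69, n = 13) and 57 (21 to 109, n = 16). The 3 highest single-exon members were SLC7A5P2 (348), ZNRF2P1 (147), a copy of a ubiquitin ligase gene, and RPS2P32 (105), a copy of the gene for a small-subunit ribosomal protein. Among those with low scores, picked out after their values were seen, were TPI1P3 (37), from the glycolytic triosephosphate isomerase, PDIA3P1 (35), from a protein disulfide isomerase, and EIF3IP1 (26), from a translation initiation factor subunit. How the other members divide between these kinds was not analysed here.

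By gene symbol, 43 of the 254 peaks (16.9%, 12.5 to 22.1%) matched a list made for families of segmental duplications, called duplication families here. The list takes any FAM or ANKRD symbol, and leaves the copies of BMS1, SMG1 and WHAMM among the other names or LOC symbols. It is thus a grouping of names and no measure of duplicated sequence. RefSeq lists 148 transcribed pseudogenes with such symbols, of which 40 (27.0%, 20.1 to 34.9%) were members. Over all transcribed pseudogenes the share was 18.7%, and the difference was not tested. A further 10 peaks belonged to zinc finger genes, 6 to cytosolic ribosomal protein genes and 5 to cytoskeletal genes. Another 4 peaks each belonged to olfactory receptors and oxidative phosphorylation, 3 each to chaperones and chromatin proteins, 2 each to MHC class I, translation factors and ubiquitin or proteasome genes, and 1 each to cytochrome P450, glycolysis and mitochondrial ribosomal proteins. Symbols of the LOC type accounted for 46 and names outside these families for 121. Median scores were 68 (49 to 90) in the duplication families, 70.5 (47 to 89) for LOC symbols and 49 (43 to 61) for the other names. Small RNA genes, ribonucleoprotein and splicing genes, small GTPases and nuclear copies of mitochondrial genes had no member. RefSeq lists only 2, 6 and 2 transcribed pseudogenes for the first 3 of these, and none for the mitochondrial copies. With so few, the lack of members says little about these families.

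Ribosomal protein pseudogenes are copies of the genes that the series title is about, and gave 6 members by symbol. RPL23AP7 had 165, RPS2P32 105, RPL13P5 58, RPL13AP20 42, RPL13AP6 36 and RPL23AP82 31. By its description, LOC101927789 (FAUP4 in RefSeq), a copy of the gene for a ubiquitin-like protein fused to ribosomal protein S30, belongs with them and had 75. These 7 scores lie on both sides of the members' median of 55, with 4 above and 3 below. The RPL23AP7 peak, on chromosome 2 from 113626693 to 113627675, also covers the start of RABL2A, a gene for a small GTPase of cilia, whose window with an NRF1-type match is printed above. By the same symbols RefSeq lists 31 transcribed ribosomal protein pseudogenes, of which 15 are named in the table and 6 (19.4%, 7.45 to 37.5%) are members, near the 18.7% of all transcribed pseudogenes that are. A further 1963 ribosomal protein pseudogenes have no transcript mark, and none of them is named in the table. Other copies of genes for ribosome assembly and translation, picked out after their scores were seen, were those of BMS1 (6 peaks from 52 to 184, given below), MRPS31P5 (122), EEF1DP3 (83), RRP7BP (68), SBDSP1 (61) and EIF3IP1 (26).

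Zinc finger pseudogenes, taken by symbol, had a median score of 63.5 (31 to 132) over 10 peaks. ZNF252P led with 197, 155 bp upstream of its TSS, followed by ZNF767P (132) and ZNF271P (98), and ZNF192P1 was lowest with 17. Of 31 transcribed zinc finger pseudogenes in RefSeq, 10 (32.3%, 16.7 to 51.4%) were members. The ZNF271P peak also covers the start of ZSCAN30, another zinc finger gene. Cytoskeletal copies were led by TUBBP5 (90), KRT8P41 (60) and ACTG1P4 (55), copies of tubulin, keratin and actin genes, and ended with CFL1P1 (36). The 3 SDHA copies, from the flavoprotein subunit of respiratory complex II, had 134, 106 and 98. Olfactory receptor pseudogenes had 51 (OR2M1P), 28, 26 and 16, all below the median of the members, and 4 of 41 transcribed ones (9.76%, 2.72 to 23.1%) were members. The 3 histone pseudogenes had 48, 48 and 42, and the 2 MHC class I pseudogenes, HLA-L and HLA-V, 36 and 21.

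Several parents were represented by more than 1 copy, and the copies differed widely in score. Grouped by symbol or parent after their values were seen, 82 members fall into 25 groups of copies. Their median score was 85.5 (55 to 98) and their median width 688 bp (537 to 824), against 49 (43 to 58) and 546.5 bp (484 to 618) for the 172 members outside these groups. Copies share much of their sequence, so reads of 1 copy can be placed at another, and whether this moved any score was not tested. FRG1 copies, named for the region linked to facioscapulohumeral muscular dystrophy, had 7 peaks on 3 chromosomes. FRG1HP had 399, FRG1CP 90, FRG1EP 74, FRG1BP 49, FRG1DP 42, FRG1FP 36 and FRG1JP 25, so the highest was 16 times the lowest, and FRG1 itself had no promoter peak.

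BMS1, a GTPase needed to assemble the small ribosomal subunit, gave 6 peaks at 5 pseudogenes, with BMS1P2-AGAP9 at 184, BMS1P14 at 170, BMS1P4-AGAP5 at 167, BMS1P21 at 83 and BMS1P22 at 53 and 52. The first 3 lie close to the 171 of the promoter of BMS1 itself. SMG1, a kinase of nonsense-mediated mRNA decay, gave 5 peaks, all on chromosome 16. SMG1P3 had 197, SMG1P2 122 and 21, SMG1P1 55 and SMG1P5 36, against 98 for SMG1. GUSB copies, from the lysosomal beta-glucuronidase gene, had 171, 98 (LOC653080), 90, 54 and 36, against 167 for GUSB. FAM86 copies ran from 171 (FAM86FP) to 13. The SDHA and HERC2 copies, with 3 peaks each, spanned less than a 1.5-fold range. So did the STAG3, PGM5, SEPTIN7, ANKRD20A, CCT6A and RPL13A copies, with 2 peaks each. Fewer peaks leave less room for a wide range. All 3 WHAMM copies lie on chromosome 15 with 271, 211 and 139, and WHAMM had 165. The 3 ULK4 copies, also on chromosome 15, had 42, 26 and 21, and ULK4 itself had 36.

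**Figure D3:**
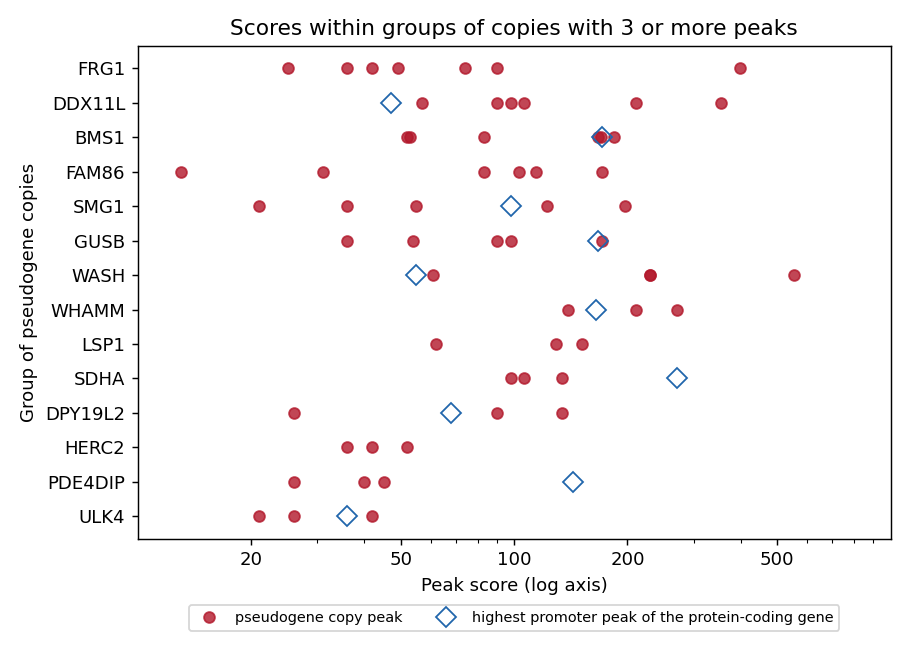
Peak scores (log axis) of the pseudogene copies in each of the 14 groups with 3 or more peaks (filled circles) and the highest promoter peak of the protein-coding gene where the table gives one (open diamonds, 10 groups). FRG1 copies run from 25 to 399 and FAM86 copies from 13 to 171, while SDHA copies stay between 98 and 134.

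Copies of WASH and DDX11L were among the high scorers. WASH pseudogenes derive from an activator of actin branching on endosomes, and DDX11L genes from a DNA helicase, and both are repeated beside many chromosome ends. The 4 WASH copies had 553, 230, 230 and 61, and the DDX11L copies 354, 211, 106 (LOC102725121, DDX11L17 in RefSeq), 98, 90 and 57. The highest of each, at WASH2P and DDX11L2, lie inside chromosome 2, and those beside chromosome ends had 230, 230 and 61 for WASH and 211, 106 and 90 for DDX11L. DDX11L5 lies on chromosome 9 from 10648 to 11583, DDX11L10 on chromosome 16 from 10319 to 11098, WASH5P on chromosome 19 from 70948 to 71307 and WASH3P on chromosome 15 from 101961332 to 101961681. Ends were taken as the lowest and highest RefSeq gene positions under a chromosome name, which can come from a scaffold assigned to it. Within 250 kb of these, a distance chosen after seeing the data, lie 13 members (5.12%, 2.75 to 8.59%), against 0.76% of protein-coding promoter peaks. They had a median score of 90 (50 to 230), against 54 (48 to 61) for the other 241 members, and include ROCK1P1, whose peak begins 107891 bp into chromosome 18. Of the 43 transcribed pseudogenes this near an end, 13 (30.2%, 17.2 to 46.1%) were members, against 224 of the other 1222 (18.3%, 16.2 to 20.6%). Scaffold entries with low positions may be among the 43, so these shares cannot be compared closely.

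The cluster with the most member peaks lay inside chromosome 2, at the site where 2 ancestral ape chromosomes are known to have joined end to end. From 113541463 to 113627675, a stretch of 86213 bp, it held 6 peaks of 4 pseudogenes. In order along the chromosome they were PGM5P4 (90), WASH2P (553), the 3 peaks of DDX11L2 (57, 98 and 354) and RPL23AP7 (165). DDX11L2 is the only pseudogene with 3 member peaks, at -250 bp, -630 bp and 691 bp from its annotated starts, and 11 others have 2. The next cluster, joining members that lie at most 100 kb apart, held 3 peaks, at OXCT2P1 (95 and 69) and PPIEL (49) on chromosome 1.

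Over the chromosomes, members were most numerous on chromosomes 1 (30), 7 (28), 15 (24), 2 (21) and 9 (20), and Y had none. On chromosome 15 they made up 5.06% of all peaks within 1000 bp of a TSS and on chromosome 7 3.90%, against 1.84% over all chromosomes and 0.626% on chromosome 14. Set against the transcribed pseudogenes that RefSeq lists under each chromosome, scaffold entries included, these differences were smaller. The share that were members was 22.6% on chromosome 15 (14.6 to 32.4%) and 25.7% on chromosome 7 (17.6 to 35.4%), against 18.7% over all. It was highest on chromosome 9, with 29.7% (18.9 to 42.4%), and low on chromosomes X (8.16%), 17 (9.46%, 3.89 to 18.5%) and 14 (4.55%). RefSeq places BMS1P22 on chromosome 22 and the table places it on 14, where counting it would raise that share. Chromosome Y had no promoter peak of any gene type, so its 19 transcribed pseudogenes are not compared. The intervals of chromosomes 9 and 17 narrowly leave out the share over all chromosomes, and those of the others compared take it in. These intervals are not adjusted for the number of chromosomes, and no chromosome was tested against the rest. Median scores were highest on chromosomes 2 (97, n = 21) and 9 (86.5, n = 20) among those with at least 20 members, and lowest on chromosome 15 (42, n = 24), which also holds REREP3 with 666.

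**Figure D4:**
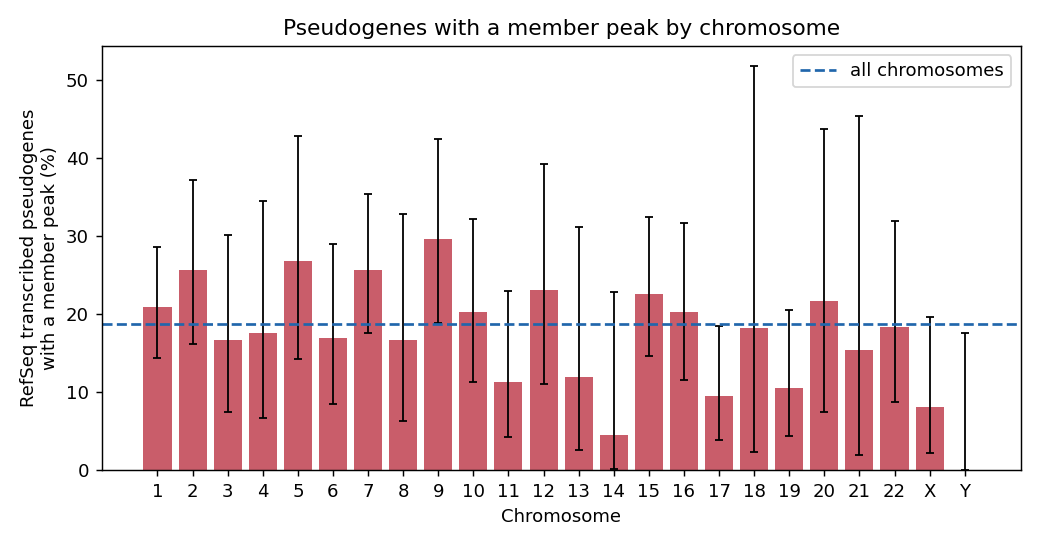
Share (%) of RefSeq transcribed pseudogenes listed under each chromosome that have a member peak, with exact 95% intervals as error bars and the share over all chromosomes (18.7%) as a dashed line. Chromosome 9 has the highest bar (29.7%), and chromosome 14 (4.55%) the lowest of those with any.

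The parents that were found had promoter peaks more often than protein-coding genes in general, in part because of how they were sought. A parent was found for 132 of 241 pseudogenes, 98 by symbol, 5 by an older symbol and 29 by the gene description. Descriptions were compared only with genes named in the peak table, so those 29 could not lead to a gene without any peak. The 132 go back to 103 distinct parents, of which 80 (77.7%, 68.4 to 85.3%) had a promoter peak, where 54.4% of RefSeq protein-coding genes had one. How far this way of searching moved the share among parents was not tested. Among genes named in the table the shares were 87.9% (79.4 to 93.8%, 80 of 91) and 78.6%. Neither difference was tested, and parents were found for 54.8% of the pseudogenes only.

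In the 104 pseudogenes whose parent had a promoter peak, the parent's highest score was above that of the copy in 70, below it in 33 and equal in the remaining 1, NKAPP1 with NKAP at 55. The median score was 92.5 for the parent and 56.5 for the copy, and 63 for the highest promoter peak of all protein-coding genes. Across these 104 pairs the scores were weakly related (Spearman rho 0.20), several pairs sharing a parent. Wide gaps in favour of the copy were at ROCK1P1 (1851, with ROCK1 at 31) and REREP3 (666, with RERE at 42). In the other direction stood BEND3P3 (13, with BEND3 at 165) and TPI1P3 (37, with TPI1 at 263). These pairs were picked out after their values were seen. SUZ12P1, a partial copy of a Polycomb repressor gene, had 75 and 55, and SUZ12 61.

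**Figure D5:**
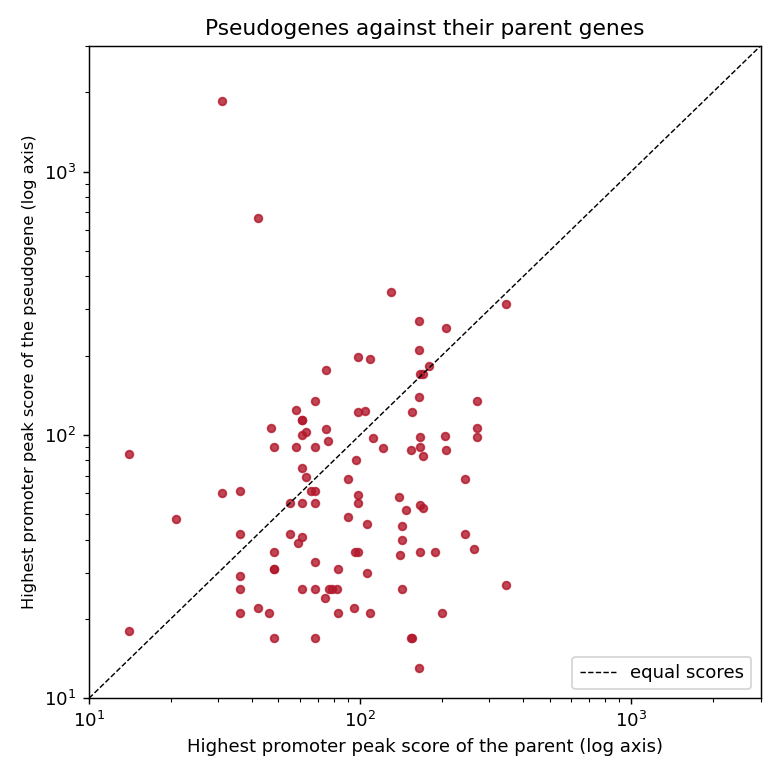
Highest promoter peak score of 104 pseudogenes against that of their parent gene (both log axes), with 1 point per pseudogene and a dashed line of equal scores. In all, 70 points lie below the line and 33 above, with ROCK1P1 (1851 against 31) farthest above.

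Some members lie where another gene also starts. Starts were known for 248 members, since the promoter table used holds none for chromosome 8. A protein-coding start lay within 1000 bp of 16 of these peak centres (6.45%, 3.73 to 10.3%) and an lncRNA start within 1000 bp of 23 (9.27%, 5.97 to 13.6%), and 38 had either. With members whose annotation names a protein-coding transcript of another gene added, the 16 became 21 (8.47%, 5.32 to 12.7%). The 16 had a median score of 86.5 (48 to 115). The 232 for which the promoter table gave no protein-coding start within 1000 bp had 53.5 (48 to 61). Those named only by the annotation, such as HTR7P1 with HEBP1, are among the 232. In the list that follows, all members are of the 16. The 16 include OGFRP1 (124) at TCF20, a transcriptional coregulator gene, and CUTALP (110) at PSMD5, a proteasome assembly chaperone gene. PARGP1-AGAP4 (115) at TIMM23, a mitochondrial import channel gene, and ZNF271P (98) at ZSCAN30 are others. CFL1P1 (36) lies at the start of ATAD1, and NDUFAF4P1 (21) between COPS2 and GALK2. At such promoters the peak cannot be given to 1 of the partners from the table.

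By the detailed annotation, 137 members (53.9%) were of the promoter class, 64 (25.2%) in exons of non-coding transcripts, 25 (9.84%, 6.47 to 14.2%) in CpG islands, 19 in introns and 8 at transcript ends. The CpG island share was 14.9% (14.3 to 15.5%) for protein-coding and 4.65% (3.57 to 5.95%) for ncRNA peaks. The class names an island only where no promoter or exon was named first, so it is a lower count of peaks at islands. Members in CpG islands had a median score of 68 (48 to 100, n = 25), against 61 for protein-coding and ncRNA peaks of that class. A repeat was named for 1 member, the Alu element at LOC100422556 (0.394%, 0.00997 to 2.17%), against 0.719% of protein-coding promoter peaks. The share was 24.8% over all peaks, whose median distance from a TSS was 15664 bp. Each peak has 1 class, so a repeat under a peak of the promoter class is not counted, and the members cannot be called poor in repeats. Another peak of the list lay within 10 kb of 140 members (55.1%, 48.8 to 61.3%), against 50.8% of protein-coding promoter peaks.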

How the data were processed

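Chromatin of MDA-MB-231 cells was precipitated with a PML antibody and sequenced with input (2 libraries each). Per the labels, duplicates were merged. Peak calling and annotation tools, per the submitters' processing notes, include HOMER 4.11.1 and MACS2 2.1.1.20160309 on hg38. The same notes list BWA 0.7.12, Trimmomatic 0.36 and Picard 2.0.1, and give no settings here. The authors deposited 1 peak table, per the file headers with a peak score of unnamed scale, positions and distances in bp. Members are rows of type pseudo within 1000 bp of a TSS. Members, gene families and comparisons were chosen with earlier results of these data known. A negative distance was checked to be upstream for 5137 of 5142 protein-coding promoter peaks, and the TSS implied by a protein-coding peak lay within 2 bp of a RefSeq start of that gene for 80.3% of 9922. Genes were matched to RefSeq GRCh38.p14 by gene ID (all 241), families by symbol, and parents by removing the final P and number from the symbol or by description. Shares have Clopper-Pearson intervals and medians order-statistic intervals, both tested on simulated data. Depth per sample was unknown. Named genes are the 12 highest, the 3 highest of each family with 5 or more peaks, the 3 widest and lowest, those with 3 or more peaks and those next to the 1000 bp limit. Further genes illustrate single-exon copies, groups of copies, neighbours and parents. The promoter window, the scores kept, 1 peak per gene and neighbouring starts were varied. The groups of copies were chosen after seeing the data. Python 3.11.15, numpy 2.4.6, scipy 1.17.1 and pandas 2.3.3 were used.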

Additional observations from a re-analysis of the deposited data

How the results depend on the processing

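The number of members, their median score and width and the shares given for score class, duplication families, parents, neighbouring starts and CpG islands were recomputed within 500 bp, with scores at or above the list median of 34, with 1 peak per pseudogene and without members near a protein-coding start. The last of these settings kept 232 peaks, since it also left out the 6 members on chromosome 8, for which starts were not known. The score was also recomputed without chromosomes 5 and 8 and the families by description. Another 2 alternatives, RefSeq transcribed pseudogenes only and members outside the groups of copies, were chosen after seeing the data. Of the values so obtained, 45 stayed within the interval of the reported value, or within 1.5 times the reported count, and 2 did not. The median width was 708 bp with scores at or above the list median, and the share of duplication families was 5.23% outside the groups of copies, an alternative that leaves out most of those families. Scores were not recomputed on a score threshold. No paired analysis was possible because the table holds 1 merged list and keeps no replicate apart. Multiply placed reads, unknown depth and an unnamed score scale limit what the scores of near-identical copies can show.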

Other observations

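RefSeq pseudogenes without a transcript mark are nearly all unnamed in the peak table (8 of 15580 are named), so peaks near them were counted from RefSeq positions. Positions were matched by chromosome name alone. Entries on scaffolds assigned to a chromosome were not taken out, and their positions do not correspond to those of the peaks, so the shares below are approximate. A peak was centred within 1000 bp of either gene end for 1296 of 15580 such pseudogenes (8.32%, 7.89 to 8.76%), against 386 of 1265 transcribed pseudogenes (30.5%, 28.0 to 33.1%), 25.4% of lncRNA genes and 60.8% of protein-coding genes. Median gene length was 659 bp in the first group and 9008 bp, 9038 bp and 24115 bp in the others, so the stretches searched at the 2 ends overlap in most of the first group. By family, the share was 5.50% for the 1963 ribosomal protein pseudogenes without a transcript, 3.94% for 3450 small RNA pseudogenes, 9.11% for 439 olfactory receptor pseudogenes, 17.4% for 109 glycolytic and 24.2% for 256 cytoskeletal pseudogenes. These counts were made after seeing the data, and no difference was tested.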
